A study of Schizosaccharomyces pombe with 30 samples.

Results

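Seb1 crosslink sites of *S. pombe* were examined just past the annotated 3′ end of protein-coding genes, taken here as the poly(A) site (PAS). The stretch lies before the next protein-coding gene on the same strand. A site was taken when it lay 1 to 250 nt after the annotated 3′ end of a protein-coding gene, on the same strand and inside no annotated gene of that strand, and when the next protein-coding gene on either strand ran in the same direction (a tandem pair). A gene whose body reached past the 3′ end counted as the next gene. Each site was given to its nearest such 3′ end. Of the 15824 sites in the deposited list, 1062 met this rule, and they lay at 490 of the 2314 tandem gene ends on the 3 nuclear chromosomes (21.2%, 95% Wilson interval 19.6 to 22.9%). The annotation holds 5113 protein-coding gene ends, of which 2794 are convergent, that is, face a gene on the other strand, and 5 have no coding gene further downstream.

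The sites come from 1 PAR-CLIP library (Photoactivatable Ribonucleoside-Enhanced Crosslinking and Immunoprecipitation) of h- cells whose seb1 gene carries a TAP tag (seb1::seb1-TAP::KanMX). Growth was at 30 °C with 10 mg/l uracil and 4% glucose, labelling was with 100 μM 4-thiouracil and then a further 900 μM for 4 h, and irradiation was with 12 J/cm2 at 365 nm. The recovered RNA was trimmed with RNase T1, which cuts after G, and the occupancy of each site was set against 1 RNA-Seq library of untagged h- cells labelled in the same way. There was 1 library and 1 condition, without a replicate, an untagged PAR-CLIP control or a mutant, so all intervals below cover counting error only and no p-value was computed across sites or genes.

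Seb1 is an essential protein with a domain that contacts the phosphorylated tail of RNA polymerase II (Pol II) and an RNA recognition motif. When Pol II passes a PAS, the transcript is cut and polyadenylated, while the polymerase continues for some distance, making an RNA that is not part of the mRNA, before it is released. Between tandem genes that release has to happen before the polymerase runs into the next promoter. RNA past the point of cleavage is normally short-lived. The sites are placed by the annotated 3′ end, which need not be that point at every gene. At 242 of the 2314 tandem ends no 3′ UTR is annotated. A crosslinked 4-thiouridine is copied as C, and the number of reads with this T-to-C transition marks how often the base was caught.

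The letters at these sites can be read directly. The 5 sites with the most transitions are shown as 51 nt of RNA, 5′ to 3′, with the crosslinked uridine in the middle and each UGUA, the short motif that Seb1 sites carry, in capitals. They are given to show where the motif stands relative to the crosslink. All sequences are from the RefSeq assembly ASM294v3.
pgk1, chrII:4157757-4157807, minus strand: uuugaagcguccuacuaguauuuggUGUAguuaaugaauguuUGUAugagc
SPCC61.05, chrIII:1451786-1451836, plus strand: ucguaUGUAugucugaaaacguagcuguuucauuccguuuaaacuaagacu
rpl2101, chrII:2503096-2503146, minus strand: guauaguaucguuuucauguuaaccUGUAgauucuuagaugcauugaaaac
met26, chrI:1481271-1481321, plus strand: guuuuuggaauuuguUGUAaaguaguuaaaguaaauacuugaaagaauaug
SPBPB7E8.01, chrII:3496822-3496872, plus strand: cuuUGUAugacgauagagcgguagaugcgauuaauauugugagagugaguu
At pgk1, which encodes the glycolytic enzyme phosphoglycerate kinase, and at rpl2101, which encodes a 60S ribosomal protein, the crosslinked base is the first U of a UGUA. At met26 (homocysteine methyltransferase, which makes methionine) the motif begins 10 nt before the crosslink, and at the uncharacterized genes SPCC61.05 and SPBPB7E8.01 it begins 20 and 22 nt before it.

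The pgk1 site lay 39 nt past the 3′ end and had 57 transitions in 402 reads, the most transitions of any of the 1062 sites. The site of SPCC61.05 lay at 200 nt with 32 transitions in 507 reads, and that of rpl2101 at 62 nt with 30 transitions in 355 reads. The met26 site at 124 nt had the deepest coverage of all, 29 transitions in 1039 reads. The site of SPBPB7E8.01 at 70 nt had 26 transitions in 712 reads.

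Whole stretches show how the sites are spread. In the 4 stretches below every crosslinked uridine is in capitals and all other bases are in lower case. They are the tandem stretches of rpl2101, of rps29 (a 40S ribosomal protein), of met26 and of the uncharacterized gene SPAPB24D3.07C, chosen from the ends with the most sites.
rpl2101, nt 1 to 229 after the end, chrII:2502954-2503182, minus strand: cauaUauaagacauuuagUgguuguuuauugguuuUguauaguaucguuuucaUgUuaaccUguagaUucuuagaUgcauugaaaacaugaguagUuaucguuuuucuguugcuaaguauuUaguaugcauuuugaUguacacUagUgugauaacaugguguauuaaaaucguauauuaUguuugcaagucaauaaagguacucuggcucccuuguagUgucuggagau
rps29, nt 1 to 245, chrII:516880-517124, plus strand: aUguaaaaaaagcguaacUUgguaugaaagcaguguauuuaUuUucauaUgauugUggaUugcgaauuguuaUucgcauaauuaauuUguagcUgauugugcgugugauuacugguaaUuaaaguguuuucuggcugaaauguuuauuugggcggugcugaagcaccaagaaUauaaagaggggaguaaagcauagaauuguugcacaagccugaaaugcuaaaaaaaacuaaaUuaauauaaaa
met26, nt 5 to 250, chrI:1481177-1481422, plus strand: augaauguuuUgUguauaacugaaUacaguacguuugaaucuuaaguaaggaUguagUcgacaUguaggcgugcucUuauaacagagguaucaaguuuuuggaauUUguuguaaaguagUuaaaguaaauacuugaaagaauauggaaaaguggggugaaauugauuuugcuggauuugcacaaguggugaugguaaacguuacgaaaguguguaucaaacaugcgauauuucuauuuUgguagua
SPAPB24D3.07C, nt 37 to 226, chrI:2957613-2957802, minus strand: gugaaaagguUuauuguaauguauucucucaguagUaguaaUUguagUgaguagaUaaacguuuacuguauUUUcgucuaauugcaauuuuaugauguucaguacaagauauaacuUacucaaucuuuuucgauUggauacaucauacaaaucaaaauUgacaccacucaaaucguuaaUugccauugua
Few of the uridines carried a called site even here. In the stretch of rpl2101 there were 15 crosslinked uridines among 95, at rps29 14 among 80, at met26 11 among 85 and at SPAPB24D3.07C 13 among 72.

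The depth behind the sites was low at most ends. The 1062 sites were covered by 68221 reads, of which 4926 carried the transition; a read over several sites enters once for each. The median was 24 reads and 3 transitions per site, and 399 sites (37.6%) rested on 2 transitions. In the whole list the medians were 13 reads and 2 transitions, and 57.1% of sites rested on 2 transitions. The occupancy, which the authors give as transitions set against RNA-Seq signal with a maximum of 1, had a median of 0.111 and quartiles of 0.0532 and 0.25. Its maximum was reached at 51 sites (4.80%, 3.67 to 6.26%), where larger ratios cannot be seen. Of the sites, 449 lay on chromosome I, 418 on II and 195 on III, and the share of tandem ends with a site was 21.2%, 20.9% and 21.7% on these chromosomes.

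The sites were crowded close to the 3′ end. Their median distance from it was 78 nt (70 to 83; quartiles 35 and 140). A site can lie only on a uridine outside annotated genes, here called an eligible uridine. The 159642 eligible uridines of the same stretches had a median distance of 107 nt. In the first 50 nt there were 371 sites, or 9.29 per 1000 eligible uridines (8.37 to 10.3). The density was 8.02 from 51 to 100 nt, 5.15 from 101 to 150 nt, 5.29 from 151 to 200 nt and 3.76 (3.02 to 4.64) from 201 to 250 nt. It thus fell by more than the counting error between the first and the last 50 nt. At the 1209 ends where all 250 nt were eligible, the median was 86 nt for sites and 123 nt for uridines. The nearest site of each end lay at a median of 52.5 nt.

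**Figure D1:**
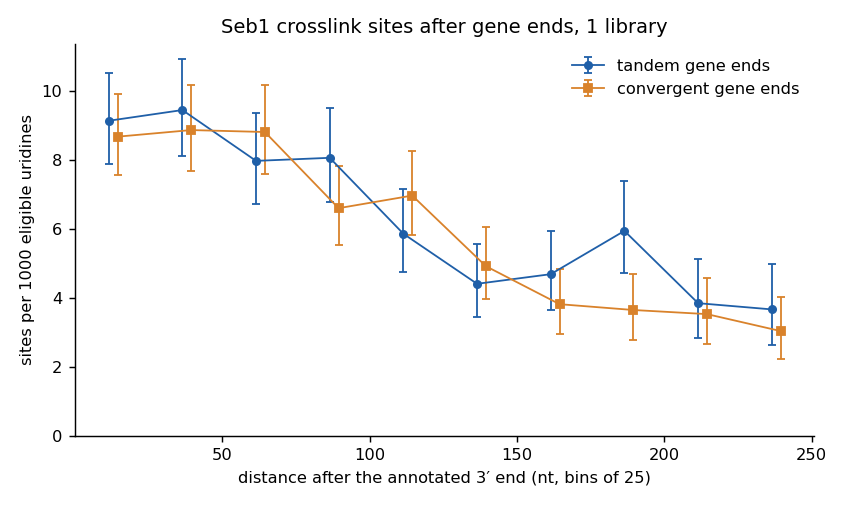
Seb1 crosslink sites per 1000 eligible uridines (vertical axis) against the distance after the annotated 3′ end in nt, in bins of 25 (horizontal axis), for tandem (circles) and convergent (squares) gene ends. Bars are exact Poisson 95% intervals of 1 library. In both sets the density is highest from 26 to 50 nt, at 9.46 for tandem and 8.87 for convergent ends, and it falls towards 250 nt. For convergent ends it is nearly the same from 51 to 75 nt, at 8.82.

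At 176 to 200 nt the tandem sites showed a higher density (5.95 per 1000 uridines, 4.72 to 7.40) than the convergent ones (3.65, 2.79 to 4.70). This bin was singled out after its values were seen, and the other bins of 25 nt in the plot of density by distance had overlapping intervals.

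Site density was higher after the 3′ end than before it over the same genes. In the last 250 nt before the end, tandem genes had 1.51 sites per kb, against 2.44 per kb of eligible sequence after it. The ratio was 1.62 (1.48 to 1.78), with sites of 1 end counted as independent. With at most 1 site counted on each side of an end, it was 1.26 (1.11 to 1.43). Over all sites and set against the uridines on each side, the ratio was 1.61. In occupancy summed per kb the ratio was 4.09, and the median occupancy of single sites was 0.0288 before and 0.111 after the end. UGUA lay within 25 nt of 48.9% of the sites before the end and of 66.3% of those after it. The whole number by which the transitions are divided to give the occupancy, taken here as RNA-Seq coverage, had a median of 94 before and 34 after the end, leaving out sites at the maximum. Its part in the difference of occupancy was not tested.

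Crosslinks before and after the end often fell on the same genes. Of the 518 tandem genes with a site in their last 250 nt, 213 (41.1%, 37.0 to 45.4%) also had one after the end, against 277 of the 1796 (15.4%, 13.8 to 17.2%) without a site before it. Of the ends with a site past the PAS, 277 of 490 (56.5%) had none in the last 250 nt of the gene, against 1796 of all 2314 tandem genes. The abundance of each RNA was not measured here apart from the occupancy, and its part in this overlap was not tested.

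UGUA lay wholly within 25 nt, on the crosslinked strand, at 704 of the 1062 sites (66.3%, 63.4 to 69.1%). Of all eligible uridines of the same stretches, 33.7% had it, which gives a ratio of 1.96, or 2.13 against uridines at least 26 nt from any site. Sites of 1 gene end share their source. With only the site of most transitions taken at each end, 313 of 490 (63.9%) had the motif, and 353 ends (72.0%) had it near at least 1 of their sites. Within 10 nt, the share was 47.4% of sites and 15.3% of uridines, a ratio of 3.09.

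More copies of the motif went with a larger excess. Of the sites, 39.7% had 1 UGUA within 25 nt, against 27.4% of uridines, and 21.5% had 2, against 5.48%, a ratio of 3.92. At least 3 copies were found at 5.08% of sites and 0.832% of uridines, a ratio of 6.11. Better supported sites carried the motif more often. It was present at 56.6% (51.7 to 61.4%) of sites with 2 transitions, 67.6% of those with 3 to 4, 74.0% of those with 5 to 9 and 81.8% (73.1 to 88.2%) of the 99 sites with 10 or more. Sites of 1 end count as independent in these intervals, although neighbours can share reads and copies of UGUA. The rise was not examined with 1 site per end.

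Some positions on and around the motif were crosslinked more often than others. At 223 sites (21.0%, 18.7 to 23.6%) the crosslinked base was the first U of a UGUA, a position held by 2.29% of eligible uridines, a ratio of 9.17. The second U of the motif was hardly ever crosslinked, at 11 sites (1.04%, 0.579 to 1.85%) against 2.29% of uridines, a ratio of 0.453. Crosslinks were also frequent on the second base after the motif, with 72 sites (6.78% against 0.802% of uridines, ratio 8.45), on the third base after it, with 44 sites (ratio 4.79), and on a U directly before it, with 45 sites (ratio 4.54). These 4 positions, picked after their values were seen, together took in 370 sites (34.8%, 32.0 to 37.8%) and 4.83% of uridines. The site with the most transitions in each register, among sites more than 25 nt past the 3′ end, is shown as 31 nt centred on the crosslinked base, with that UGUA in capitals.
First U, pgk1, chrII:4157767-4157797, minus strand: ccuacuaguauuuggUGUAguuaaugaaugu
U before the motif, SPAPB24D3.07C, chrI:2957746-2957776, minus strand: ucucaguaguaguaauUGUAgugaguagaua
U at the second base after, SPAPB24D3.07C, chrI:2957740-2957770, minus strand: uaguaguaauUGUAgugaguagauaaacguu
U at the third base after, rps29, chrII:516958-516988, plus strand: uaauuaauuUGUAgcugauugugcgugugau
In SPAPB24D3.07C the same UGUA was crosslinked on both of its sides. The U before it, 78 nt past the end, had 22 transitions in 347 reads and the second base after it, at 84 nt, had 25 in 337 reads. The first U of that motif, at 79 nt, had 20 transitions in 345 reads.

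**Figure D2:**
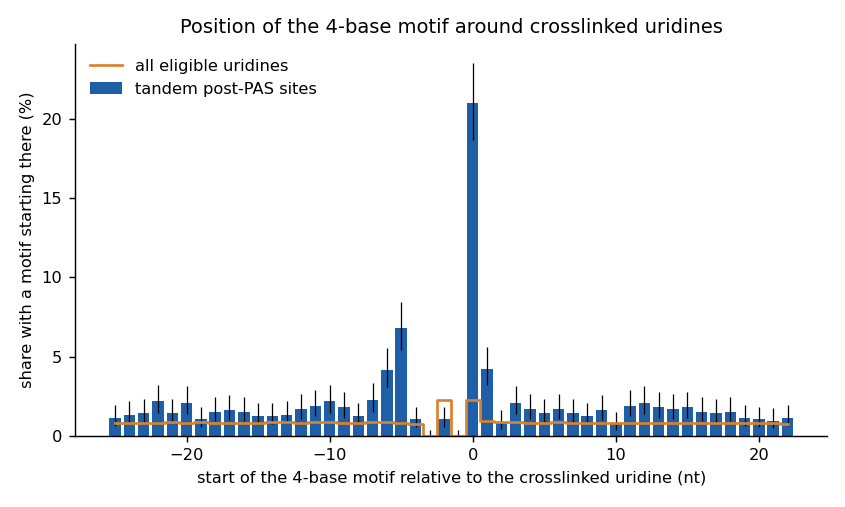
Share of tandem sites past the PAS (bars, with Wilson 95% intervals) and of all eligible uridines (line) that have the 4-base motif starting at each position relative to the crosslinked uridine (horizontal axis, nt; negative is 5′). The bar at 0 reaches 21.0% against 2.29% of uridines, and the bar at -5 reaches 6.78% against 0.802%.

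The base that follows the crosslinked uridine was a G at 38.1% of sites and 16.3% of eligible uridines, and a C at 3.30% and 13.7%. At the position 2 nt before the crosslink, A was found at 47.2% of sites and 32.4% of uridines. Among the 72 sites on the second base after UGUA, the base in between was a G at 32 (44.4%), against 19.0% of uridines in that position. RNase T1 cuts after G, and its part in these base shares was not tested.

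Ranked by the ratio of sites to eligible uridines within 25 nt, the 10 leading tetramers were GUAG (2.58), UGUA (1.96), GGCG (1.85), GUGU (1.83), GUAA (1.66), AGUG (1.65), UGUG (1.65), GCGU (1.62), GGUG (1.59) and AGUA (1.59). Several of these, UGUA among them, overlap in the letters GUA, so that 1 stretch of RNA can count for several of them. GUAG stood near 39.2% of sites and 15.2% of uridines, a larger ratio than UGUA but a smaller share. The bases next to the motif differed in the same sense. UGUAG had a ratio of 3.81 (24.4% of sites, 6.40% of uridines), UGUAA of 2.16, UGUAU of 1.92 and UGUAC of 1.81. On the other side, GUGUA had a ratio of 2.98, CUGUA 2.30, AUGUA 2.23 and UUGUA 2.05.

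Of the sites, 358 (33.7%) had no UGUA within 25 nt. Near these, AGUA stood at 50.3% of sites and at 26.8% of the uridines that also lack the motif, a ratio of 1.87. GUAA stood at 36.0% and 19.2%, again a ratio of 1.87. For GUAG the shares were 20.9% and 9.61%, a ratio of 2.18. Each of these tetramers holds the letters GUA.

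Copies of UGUA near the end had a site close by more often than copies far from it. The stretches held 3612 copies of UGUA, and 650 of them (18.0%, 16.8 to 19.3%) had a site within 25 nt. The share was 21.6% (19.4 to 24.1%) for copies starting 1 to 50 nt past the end and 11.0% (8.30 to 14.4%) for those 201 to 250 nt past it. The density of all sites also fell over these distances, from 9.29 to 3.76 per 1000 eligible uridines, so the fall is not particular to UGUA. At the 553 ends with at least 3 copies, the first had a site in 22.1% of ends, the second in 23.1% and the third, at a median of 146 nt, in 21.7%. The order of the copies thus showed no difference beyond counting error. The motif share of the sites was 76.5% in the first 50 nt and 59.1% in the last 50 nt, while that of the uridines was 40.7% and 28.7%, so that the ratio was 1.88 and 2.06.

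Among whole gene ends, the number of UGUA went with the share that had a site. With all 250 nt eligible, 22 of 159 ends without a UGUA had a site (13.8%, 9.32 to 20.1%). The share was 19.3% with 1 copy, 28.5% with 2, 36.5% with 3, 36.1% with 4 and 55.1% (43.4 to 66.2%) with 5 or more, where 38 of 69 ends had a site. The density rose from 1.80 to 24.3 sites per 1000 uridines over the same classes, while the mean number of uridines stayed between 90.7 and 93.1. A few ends weigh heavily in the highest density. Its 156 sites include 15 at rpl2101, 13 at SPAPB24D3.07C and 11 at met26. Ribosomal protein genes had a median of 3 UGUA per tandem end, against 1 over all tandem ends, and their part in the rise was not tested. Ends with a site had a mean of 2.61 UGUA and ends without one 1.82. Uridines made up 36.1% and 36.7% of their sequence, and the median gene length was 1752 and 1699 nt. AAUAAA, the canonical poly(A) signal, was found in the last 40 nt of the gene, on its own strand, at 13.7% of ends with a site and 12.3% of ends without one, a difference of 1.35 points (-2.87 to 6.11), among ends with an annotated 3′ UTR and all 250 nt eligible.

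**Figure D3:**
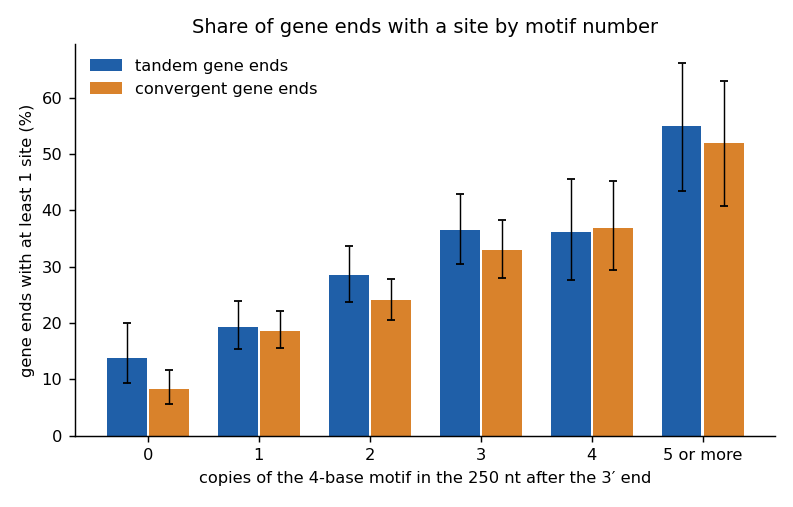
Share of gene ends with at least 1 site (vertical axis, bars with Wilson 95% intervals) by the number of copies of the 4-base motif in the 250 nt after the 3′ end (horizontal axis), for tandem and convergent ends with all 250 nt eligible. For tandem ends the share is 13.8% without the motif and 55.1% with 5 or more copies.

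Sites clustered within an end. Of the 490 ends with a site, 270 had 1 site, 105 had 2, 83 had 3 to 5 and 32 had 6 or more. These 32 ends held 273 sites (25.7%). Neighbouring sites of the same end were a median of 21 nt apart (quartiles 7 and 50.25), and 54.9% of neighbours lay within 25 nt of each other. The 220 ends with at least 2 sites covered a median of 88 nt from the first site to the last. Reads of one crosslinked fragment can cover several of these sites, so they are not independent of each other.

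The 12 ends with the most sites held 139 sites. The first of them, rpl2101 and ubi3, had 15 sites each. In rpl2101, whose next gene cox10 begins 521 nt further on, the sites ran from 5 to 219 nt past the end with 6 to 30 transitions each. UGUA lay near 14 of the 15. In ubi3, which encodes ubiquitin fused to a ribosomal protein, the sites ran from 1 to 231 nt with 2 to 9 transitions, and UGUA lay near 5 of the 15. The end of rps29 had 14 sites with 8 to 19 transitions, and the gene itself had 10 sites in its last 250 nt. SPAPB24D3.07C had 13 sites with 6 to 25 transitions and the highest summed occupancy of all ends, 5.57.

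The other 8 ends had 9 to 11 sites each. The aldolase gene fba1 had 11 sites, 8 of them with UGUA, with 201 to 477 reads each. The methionine synthesis gene met26 also had 11, of which 10 had UGUA, and the hexose transporter gene ght8 had 11 within its 150 eligible nt, of which 7 had UGUA. The CTP synthase gene cts1 had 10 sites with 3 to 12 transitions, and qcr1, annotated as the beta subunit of the mitochondrial processing peptidase, had 9 with 4 to 12. The ribosomal protein genes rpl1202, rps602 and rps1802 had 11, 10 and 9 sites. In rpl1202 none of the last 250 nt of the gene carried a site. In rps1802 all 9 sites had UGUA, and the 250 nt past its end held 7 copies.

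**Figure D4:**
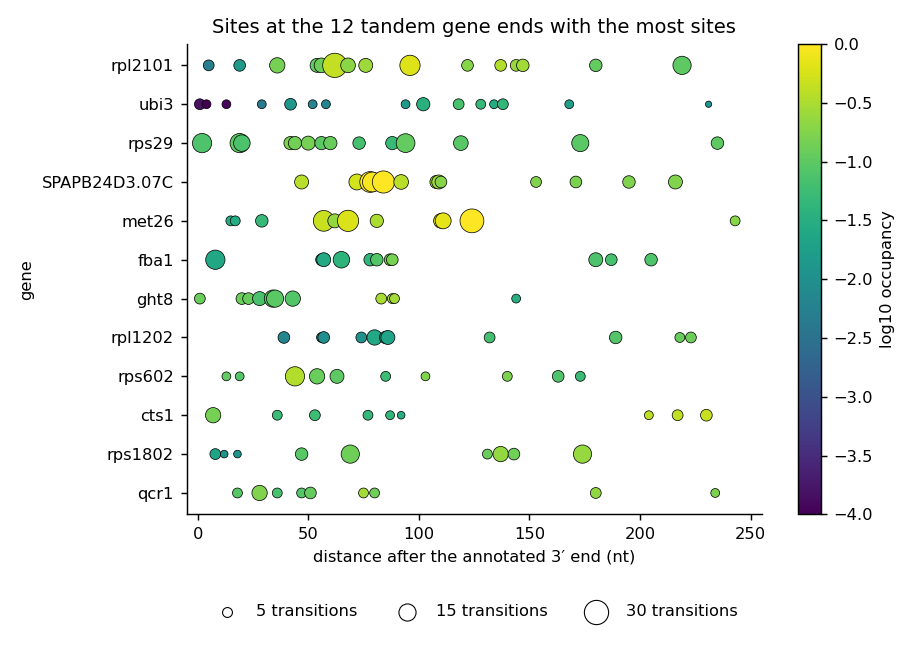
Sites at the 12 tandem gene ends with the most sites, placed by their distance after the annotated 3′ end (horizontal axis, nt). The area of a circle is proportional to the number of transitions and its colour is the log10 of the occupancy. The ends hold 9 to 15 sites each, and those of rpl2101 lie between 5 and 219 nt.

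The ends with the highest summed occupancy were SPAPB24D3.07C (5.57), met26 (4.30), SPCC61.05 (3.79), rpl2101 (3.17) and sua1 (3.06). SPCC61.05 was unusual in its spacing, with 8 sites that all lay between 148 and 250 nt. Its sites had 163 to 572 reads and 6 to 32 transitions each. The gene sua1 encodes sulfate adenylyltransferase, the first enzyme of sulfate assimilation, and its 6 sites at 77 to 195 nt had only 3 to 5 transitions each but occupancies of 0.167 to 0.714, since the number they are divided by was between 7 and 18.

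The number that stands under the occupancy often changed along single ends. At ubi3 it was 39075, 38977 and 35007 at the sites 1, 4 and 13 nt past the annotated end, 918 at 29 nt and between 258 and 602 at the 5 sites from 42 to 102 nt. It was 88 at 118 nt, between 106 and 140 at the 3 sites from 128 to 138 nt, 241 at 168 nt and 154 at 231 nt. The transitions of these 15 sites lay between 2 and 9. At met26 it was 170 to 176 at the 3 sites up to 29 nt, with 5 to 8 transitions, between 15 and 48 at the 6 sites from 57 to 111 nt, with 9 to 23, and 29 and 26 at 124 and 243 nt, with 29 and 5. At cts1 it lay between 82 and 110 at the 7 sites up to 92 nt, with 3 to 12 transitions, and between 10 and 15 at the 3 sites from 204 nt on, with 4 to 7, so that the occupancy was 0.0323 to 0.146 in the first group and 0.4 to 0.467 in the second. Over the 85 ends whose first and last sites lay at least 100 nt apart, with none of these at the maximum, the number was lower at the last site in 57 and higher in 26. The transitions were lower at the last site in 37 of these ends, higher in 19 and equal in 29. The occupancy was higher at the last site in 51 of the 85 and lower in 32. Over all 220 ends with at least 2 sites, the number was lower at the last site in 124 and higher in 79. The transitions showed little difference there, being lower at the last site in 73, higher in 65 and equal in 82. The occupancy was higher at the last site in 123 of the 220 and lower in 87. A high occupancy far past the end can therefore go with few transitions, and single values of either rest on small counts.

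The distance to the next gene on the strand set how much room the sites had, but the density also differed. Of the 794 ends with 1 to 250 nt before the next gene, 118 (14.9%, 12.6 to 17.5%) had a site, with 3.99 sites per 1000 eligible uridines (3.42 to 4.63). With over 250 and up to 500 nt, 163 of 611 ends (26.7%, 23.3 to 30.3%) had one, at a density of 6.0 (5.37 to 6.68). With over 500 and up to 1000 nt, 133 of 412 ends (32.3%, 27.9 to 36.9%) had one, at 10.8 (9.76 to 12.0). Above 1000 nt, 76 of 334 ends (22.8%, 18.6 to 27.5%) had one, at 6.89 (5.92 to 7.98). The density was thus highest with over 500 and up to 1000 nt, and its interval there did not overlap any of the others. These density intervals count sites of 1 end as independent. The share of ends with a site in that class had an interval that overlapped the one for over 250 and up to 500 nt.

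The same order held when only the first 100 nt past the end were counted, where the densities were 4.91, 8.58, 15.1 and 9.23. Of the 12 ends with the most sites, 7 had their next gene over 500 and up to 1000 nt away. Without these 12 ends the densities were 3.99, 5.60, 8.53 (7.58 to 9.56) and 5.79 (4.90 to 6.81), and without ribosomal protein genes they were 3.58, 4.88, 8.75 and 5.56. The median occupancy ran the other way, with 0.182, 0.127, 0.0769 and 0.124 in the 4 classes. At the 163 ends that overlap the next gene no site was found, but these had 138 eligible uridines in all.

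The shortest distances with a site were those of csi2, where met8 begins 38 nt after the end, of alp11 (tubulin cofactor B, 56 nt), of ipk1 (an inositol phosphate kinase, 62 nt), of sap49 (a splicing factor subunit, 69 nt) and of are2 (a sterol acyltransferase, 80 nt). The first 4 had 1 site with 2 transitions in 4 to 12 reads. At are2 there were 2 sites, at 19 and 30 nt, with 3 and 5 transitions and 33 and 36 reads. The first 4 thus rest on the smallest number of transitions in the list, while are2 is at or above the medians of 3 transitions and 24 reads.

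Seen from the next gene, a site lay a median of 419.5 nt before its start (quartiles 223.25 and 660.75). Of the sites, 307 (28.9%) lay within 250 nt of the next gene and 80 (7.53%) within 100 nt. In gaps of up to 250 nt, 50 of 173 sites (28.9%, 22.7 to 36.1%) were nearer to the next gene than to the 3′ end, against 47.7% of the eligible uridines. Of ends with a site, 22.9% (19.4 to 26.8%) had a next gene with a site in its first 250 nt, against 20.8% (18.9 to 22.8%) of ends without one, a difference within the counting error.

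On the opposite strand, 511 sites (48.1%) faced an annotated gene, and none of these genes was protein-coding, as the rule requires. Of the eligible uridines 46.4% faced one. The sites that faced a gene had UGUA at 63.2% and a median occupancy of 0.105, those that did not had 69.1% and 0.118.

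Ribosomal protein genes were by far the largest group. Of their 58 tandem ends, 48 had a site (82.8%, 71.1 to 90.4%), where all tandem ends stood at 21.2%. These 48 ends held 216 sites, 20.3% of the total, with a median of 3 sites over the 58 ends, and 75% of these sites had UGUA. Their sites had a median of 77 reads but a median occupancy of 0.0603, against 15 reads and 0.133 at all other tandem ends. Without ribosomal protein genes, 442 of 2256 ends (19.6%) had a site and 64.1% of the sites had UGUA. Of the 10 ends without a site, rps101, rps601, rps2601 and rpl802 had no UGUA. The other 6 had between 1 and 6 copies, and rps601, rpl35 and rps101 had 20, 137 and 172 eligible nt while the rest had all 250.

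Other genes of translation and protein folding often had sites too. All 3 tandem ends of elongation factor genes had them, with 6 sites at tef102, 5 at tef103 and 2 at eft201. Of the ubiquitin genes, ubi3 had 15 and ubi4 had 3. Of 6 chaperone genes 5 had sites, with 5 each at ssa1 and sks2, 3 at ssa2 and 1 each at bip1 and hsp104, and none at hsp16, whose stretch had 38 eligible nt. Of 10 ends of glycolysis and fermentation genes 5 had sites, with 11 at fba1, 4 at pgk1, 2 at tdh1 and 1 each at gpm1 and tpi1. The 5 without sites were hxk1, pdc202, pdc102, eno102 and gpd3.

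Of the 6 cell wall genes 4 had sites, with 2 at psu1, 2 at bgs4 and 1 each at bgs3 and gas4. Among hexose transporter genes ght8 had its 11 sites, while ght1, ght2 and ght5 had none, although their stretches held 6, 5 and 3 copies of UGUA. Of the 9 ends of genes for 3′ end processing and termination factors 1 had a site, with 2 transitions at cft1, a subunit of the cleavage and polyadenylation factor. Of the other 8, pfs2 had no eligible nt, and ysh1 and ssu72 had 81 and 85. Of the core histone genes, hht1 had none with all 250 nt eligible, and hhf2 had no eligible nt and so could not have one. The intervals of the small groups are wide, at 1.99 to 43.5% for 3′ end processing and termination, 43.6 to 97.0% for chaperones and 43.9 to 100% for elongation factors. The abundance of the RNAs was not measured here.

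**Figure D5:**
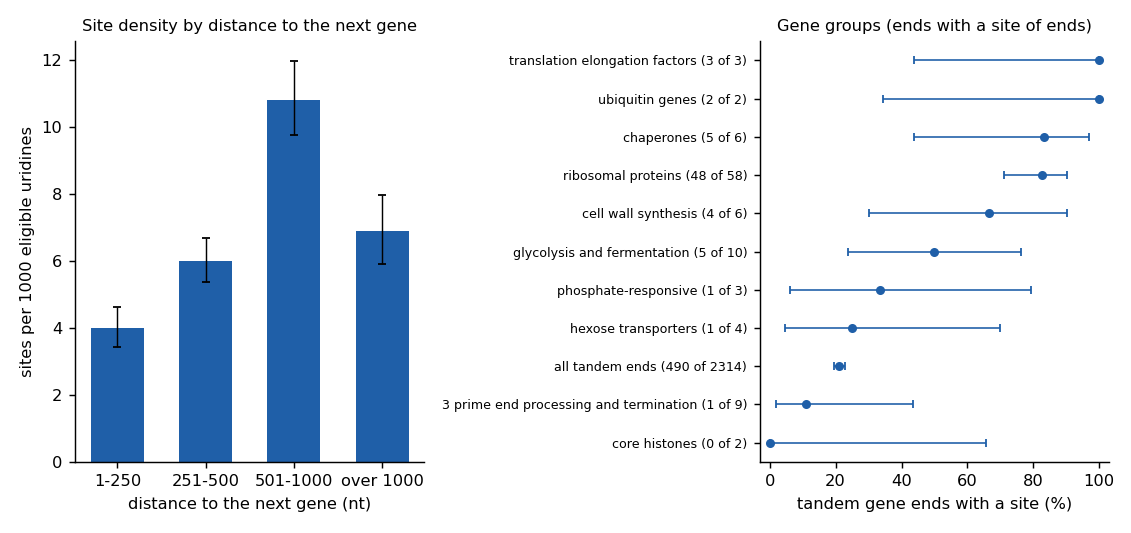
Left, sites per 1000 eligible uridines (bars, exact Poisson 95% intervals) by the distance from the 3′ end to the next gene in nt. Right, share of tandem gene ends with at least 1 site for gene groups (points, Wilson 95% intervals), with the number of ends with a site of all ends in brackets. The density is highest, at 10.8, for distances over 500 and up to 1000 nt, and ribosomal protein genes stand at 82.8% where all tandem ends stand at 21.2%.

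Of the genes that the study examined singly, 3 have a tandem end. At pho1, the phosphate-regulated acid phosphatase gene, 4 sites lay at 54, 57, 74 and 89 nt, with 5, 5, 8 and 7 transitions in 99, 109, 115 and 66 reads. Their occupancies were 0.278, 0.278, 1 and 0.875. UGUA lay near the last 3 of them. At rps401, which encodes a 40S ribosomal protein, 4 sites lay at 36, 43, 47 and 188 nt, with 5, 4, 5 and 3 transitions and occupancies of 0.147, 0.0976, 0.119 and 0.125. At aro2 (chorismate synthase) a single site with 2 transitions in 9 reads lay at 123 nt.

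Convergent ends were set beside the tandem ones, but the 2 sets differ in more than the direction of the next gene. Of the 2794 convergent ends 1699 overlap the next gene, against 163 of the 2314 tandem ends. The median distance to it is -49 nt for convergent ends, a negative value being an overlap, and 315 nt for tandem ends. The part of this distance in the differences below was not tested. With all 250 nt eligible, 336 of 1209 tandem ends (27.8%) and 449 of 1929 convergent ends (23.3%) had a site, a difference of 4.52 points (Newcombe 95% interval 1.39 to 7.69). At least 2 sites were found at 13.6% and 9.43% of ends, a difference of 4.13 points (1.85 to 6.51). The tandem stretches also held more UGUA, 8.16 against 7.25 per kb, and more uridines, 36.5% against 32.7% of bases. Among ends with the same number of UGUA the differences were 5.60 points with none (-0.0983 to 12.3), 0.664 with 1, 4.50 with 2 and 2.90 with 3 or more, and each of these intervals included 0. Among ends of genes with no site in their last 250 nt the difference was 3.96 points (0.731 to 7.28), and among those with one it was 6.15 points (-1.23 to 13.5). If only genes that begin after the 3′ end are counted as the next gene, 3142 ends are tandem, and the difference was 1.24 points (-1.85 to 4.28), so that it no longer exceeded the counting error.

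The median distance was 78 nt (70 to 83) for tandem and 75 nt (70 to 80) for convergent sites. From 151 to 200 nt the tandem sites were denser, with 5.29 (4.48 to 6.21) against 3.74 (3.12 to 4.45) per 1000 uridines, while the intervals of the other bins of 50 nt overlapped. This bin holds the one of 176 to 200 nt singled out above, so it is not a separate result. The intervals count sites of 1 end as independent. With 1 site per end, 63.9% of tandem and 60.7% of convergent sites had UGUA within 25 nt, a difference of 3.20 points (-2.61 to 8.95), and 37.1% and 36.1% lay within 50 nt of the end, a difference of 1.04 points (-4.70 to 6.81).

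The occupancy was higher at tandem sites. Its median was 0.111 (0.1 to 0.125) against 0.0571 (0.0536 to 0.0616) at convergent sites, while the medians of reads (24 and 20) and of transitions (3 and 3) were close. The number under the occupancy had a median of 34 at tandem and 68 at convergent sites. Of the 1183 convergent sites 668 (56.5%) faced a protein-coding gene on the other strand, and their median occupancy was 0.0498, with a number of 68. The 431 convergent sites that faced no annotated gene had 0.0870 (0.0769 to 0.1) and 64, and the 551 such tandem sites had 0.118 (0.102 to 0.136) and 34. Whether the number counts RNA of 1 strand or of both is not given in the sources used here, and its part in the difference was not tested.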

How the data were processed

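The PAR-CLIP site list of 1 library was used. Per the labels the reads came from TAP-tagged cells. The submitters' processing notes name Bowtie 1.1.1, SAMtools and the build ASM294v2 among their tools, with no role given, and the site caller is not given in the sources used here. The list deposited by the authors gives for every site a count of reads with the transition and a count of covering reads, neither normalized. The deposited p-value, at most 0.00493 at the 1062 sites, served only as a description. The deposited occupancy is a ratio. At all 15824 sites it equals the transitions over a whole number within a relative tolerance of 1e-06, which large numbers pass by construction. The number was read as RNA-Seq coverage, an inference from the values. PCR reads are not independent molecules and duplicates could not be recognised, so intervals and shares cover counting error only.

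Sites were placed on the RefSeq annotation of ASM294v3. All 15789 nuclear sites fell on a T of their strand, and the 35 others were left out. Of the 2314 tandem ends 242 have no annotated 3′ UTR, and 29 of these (12.0%) had a site, against 461 of 2072 (22.2%) with one. A UGUA counted when all of its bases lay within 25 nt on the site's strand. Intervals of 95% are Wilson for shares, Newcombe for differences of shares, exact binomial for density ratios, exact Poisson for densities and order statistics for medians. Python 3.11.15 was used with scipy 1.17.1, numpy 2.4.6, matplotlib 3.10.9 and pandas 2.3.3, and site assignment and motif shares were tested on simulated data.

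The members and gene lists were chosen with earlier results of these data known. The text names the 12 ends with the most sites, the 5 with the highest summed occupancy, the 5 sites with the most transitions, the 5 shortest gaps with a site, genes of the lists or of the paper, and 10 tetramers. Pentamers, registers and along-end values were added after values were seen, and 2 lists were corrected, with RNase P genes taken out of one and, in the other, the transcription factor gene pap1 replaced by the poly(A) polymerase gene pla1. Alternatives changed the transitions, reads, occupancy maximum, sites per end, window, next gene and motif width. RNA-Seq and ChIP-Seq samples of the series were not analysed here.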

Additional observations from a re-analysis of the deposited data

How the results depend on the processing

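Of 67 alternatives, 48 stayed within the interval or, for a difference, kept its interval on the same side of 0 or across it. None turned a difference whose interval excluded 0, and the others are given here. The 48 include a change of the background uridines alone, which could not move the share of sites. The number of sites has no interval and was held to a fold range instead. That range took in 803 sites at ends with all 250 nt eligible and 1372 if only genes beginning after the end count as next. With at least 3 transitions there were 663 sites, 10.5% of ends had a site, the ratio of sites per kb after to before the end was 2.02 and 72.1% of sites had UGUA. With at least 13 reads, the median of the whole list, these values were 704 sites, 10.8%, 1.89 and 70.0%, and the median occupancy was 0.0940. Fewer sites enter both by construction. With 1 site per end the ratio was 1.26 and the median occupancy 0.149. At ends with all 250 nt eligible, 27.8% had a site and the median distance was 86 nt. In a window of 100 nt, 15.6% of ends had a site. With the window of 250 nt kept, 47.4% of sites had UGUA within 10 nt. If only genes beginning after the end count as next, the ratio was 1.47, the median occupancy 0.0923, the tandem minus convergent difference 1.24 points (-1.85 to 4.28), and ends with over 250 and up to 500 nt to the next gene had a site 6.60 points (2.60 to 10.7) more often than those with over 1000 nt, against 3.92 (-1.92 to 9.46) as reported; the cause was not tested. The difference in UGUA share between tandem and convergent sites, whose interval always included 0, was 3.20 points as reported but -3.99 with at least 3 transitions, -2.41 with at least 13 reads and -1.33 with the other next gene. Restricting to ends beyond the stop codon, chosen after seeing the data, moved no value out of its interval. No paired analysis was possible because there was 1 PAR-CLIP library. Depth limits what single sites show, since 37.6% rest on 2 transitions.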
